A study of Capra hircus with 9 samples.

Results

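The RAB genes of the goat rumen epithelium were followed across 3 diets. A gene was taken as a member when its name in the files is RAB, a number and at most 1 further letter, and when all 9 libraries list it. That gave 50 of 18383 genes. A further 8 RAB names were listed in some libraries only and are no members. The lining of the rumen, the large fermenting forestomach, was collected from goats aged 4 months, and total RNA was sequenced in 3 libraries for each of the diets labelled HC, MC and LC. The labels speak of concentrate diets and do not spell these letters out, name no breed and give no agent or allele, and all libraries share tissue and age. Nor do they tell whether each library is its own animal, so each p-value measures only the spread between these samples, which may be technical.

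RAB proteins are small GTPases that mark the membranes of the cell and direct vesicles between them. Each one is anchored by lipid tails, is switched on by an exchange factor that loads GTP, binds effectors such as tethers and motor proteins, and is switched off by a GTPase-activating protein. In stratified epithelia they carry receptors, adhesion proteins and secreted cargo between the Golgi, the endosomes and the cell surface.

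Values are FPKM, which count sequenced fragments relative to gene length and library total and so can be compared between genes. Means are given ± SD (n = 3). Tests are those of limma on log2(FPKM + 1) in 1 fit of 11668 genes, with log2 changes ± SE, Benjamini-Hochberg adjustment over all those genes and a threshold of 0.05. On this scale changes of low genes are understated. HC lay lower as a whole, with a median log2 change over all tested genes of -0.10 against LC and -0.10 against MC, against -0.0067 for MC minus LC. The 3 contrasts share libraries, so they are not independent of each other. Summed FPKM of a library ranged from 756030 in LC1 to 1051183 in HC2. The epithelial markers KRT5, KRT14, TP63, DSG3, DSP, PKP1 and EPCAM were listed in every library, with KRT5 at 2696 FPKM or more, and KRT6A was not listed. Smooth muscle markers separated the libraries, with a summed level of 57.6 FPKM in LC3, 105 to 136 FPKM in HC, 1077 and 1848 FPKM in LC2 and LC1, and 932 to 2852 FPKM in MC.

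The RAB genes together held 1622 to 1886 (LC), 1843 to 1996 (MC) and 1705 to 1850 (HC) FPKM, and these ranges overlapped. RAB25, the recycling GTPase of epithelial cells, had the highest level in every library and 14.9% of the RAB total. It stood at 218, 338 and 324 FPKM in LC1 to LC3, at 237, 232 and 263 FPKM in MC1 to MC3, and at 251, 275 and 311 FPKM in HC1 to HC3. The diets overlapped, and RAB25 passed no contrast. RAB1A, which acts between the endoplasmic reticulum and the Golgi, followed with a mean of 144 FPKM over all libraries. Behind it came RAB7A of late endosomes and lysosomes at 110.1 FPKM and RAB11A of recycling endosomes at 102 FPKM. At the other end, 5 members had a mean under 1 FPKM (RAB3B, RAB6B, RAB9B, RAB26 and RAB30), and these were the members that did not pass the filter of at least 1 FPKM in at least 3 libraries. The remaining 45 were tested, of which RAB38 passed that filter through LC alone and RAB27A through LC and MC alone.

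**Figure D1:**
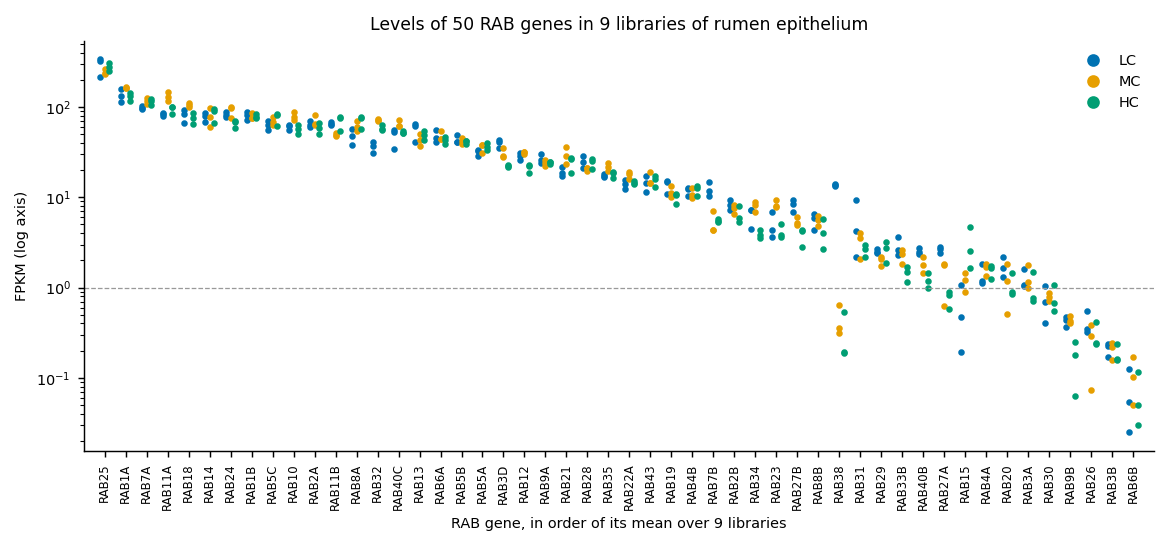
FPKM on a log axis of the 50 RAB genes in each library (dots, coloured by diet), in order of the mean over 9 libraries. RAB25 leads, 5 genes have a mean under the dashed line at 1 FPKM, and RAB38 is the gene whose LC libraries stand far above its MC and HC libraries.

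RAB38 and RAB32 are close relatives that deliver cargo to lysosome-related organelles, of which the melanosome of pigment cells is the best known. RAB38 (chromosome 29, 6646012 to 6711764) stood at 13.6, 14.2 and 13.4 FPKM in LC1 to LC3, at 0.640, 0.316 and 0.356 FPKM in MC1 to MC3, and at 0.194, 0.532 and 0.187 FPKM in HC1 to HC3. It was high in all LC libraries and low in the other 6. The log2 changes were -3.51 ± 0.15 for HC minus LC and -3.36 ± 0.15 for MC minus LC. RAB38 was singled out with this pattern known, so its levels are a description and no p is given.

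RAB32 (chromosome 9, 70362714 to 70368298) moved the other way. It stood at 30.7, 40.9 and 36.6 FPKM in LC1 to LC3, at 73.9, 69.7 and 72.8 FPKM in MC1 to MC3, and at 56.5, 62.9 and 55.9 FPKM in HC1 to HC3. The LC libraries were the lowest and the MC libraries the highest, with no overlap between any diets. RAB32 rose in MC against LC (log2 change 0.99 ± 0.13, adjusted p = 0.000220) and in HC against LC (log2 change 0.69 ± 0.13, adjusted p = 0.00334). The difference between HC and MC did not pass (log2 change -0.30 ± 0.13, adjusted p = 0.115). RAB38 made up 25.8% to 30.8% of the summed FPKM of the pair in LC, 0.452% to 0.858% in MC and 0.333% to 0.839% in HC. The sum itself was lower in LC (44.3 to 55.1 FPKM) than in MC (70.0 to 74.6 FPKM) and HC (56.1 to 63.5 FPKM).

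**Figure D2:**
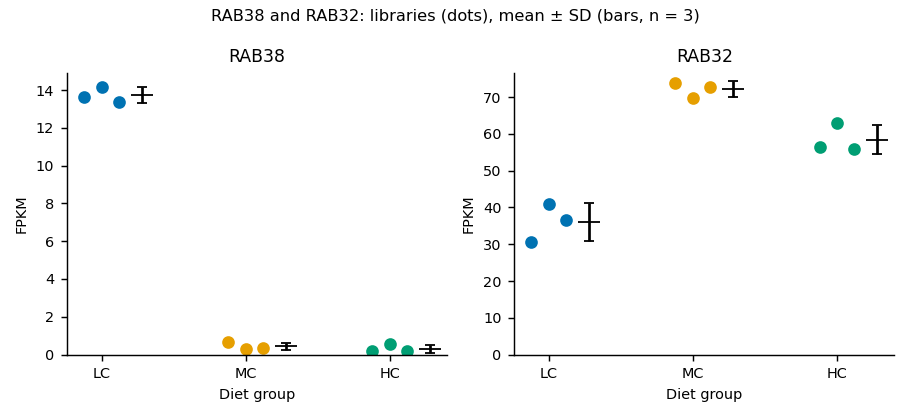
FPKM of RAB38 (left) and RAB32 (right) by diet group. Dots are libraries, and bars beside them are means ± SD (n = 3). RAB38 is at 13.4 to 14.2 in LC and under 1 elsewhere, while RAB32 is lowest in LC.

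Markers of other cells were read beside this pair. Of 10 melanocyte markers TYR, TYRP1, DCT and MLANA were listed in no library, PMEL reached at most 0.277 FPKM, and the summed level was 2.01 to 4.38 (LC), 3.01 to 3.54 (MC) and 1.83 to 2.2 (HC) FPKM. Of 10 macrophage and dendritic cell markers 9 were listed and CD163 was not. Their summed level was 194 to 282 (LC), 22.7 to 31.0 (MC) and 49.7 to 61.5 (HC) FPKM. GPNMB, a glycoprotein of melanosomes and lysosomes, made up most of that in LC. Without it the sums were 63.0 to 70.5, 20.1 to 28.2 and 34.0 to 42.4 FPKM in LC, MC and HC. Single markers differed in order. CD207 stood at 3.18 to 4.44 FPKM in LC and at most 0.531 FPKM elsewhere. CD14 was lower in HC (3.80 to 5.61 FPKM) than in MC (7.41 to 8.44 FPKM), and C1QA was higher in HC (7.90 to 13.6 FPKM) than in MC (2.15 to 5.58 FPKM). Among 5 T and NK cell markers CD3E stood at 3.51 to 3.77 FPKM in LC and at most 0.831 FPKM elsewhere, CD3D at 1.33 to 2.08 against at most 0.410 FPKM, and CD2 at 0.901 to 1.87 against at most 0.339 FPKM. NKG7 went the other way, at 2.78 to 3.04 FPKM in LC and 7.98 to 15.01 FPKM elsewhere, so that the summed level was 11.4 to 17.2 FPKM over all libraries. The plasma cell gene JCHAIN stood at 2.38 to 3.26 FPKM in LC and 0.772 to 1.88 FPKM elsewhere, while the sum of its list (98.2 to 154 FPKM) was mostly XBP1. The neutrophil (1.21 to 2.72 FPKM) and nerve and glia (0.345 to 3.94 FPKM) sums were low in all libraries. The part of macrophages and T cells in the level of RAB38 was not tested. In bulk tissue, fewer cells of a type and less RNA per cell cannot be told apart.

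Over the family, HC minus LC had 11 of 44 tested members besides RAB38 past the test, against 25.2% of all genes. RAB8A, RAB15 and RAB32 rose, where 7.79% of all genes did. RAB3D, RAB7B, RAB12, RAB27A, RAB27B, RAB33B, RAB34 and RAB40B fell, where 17.4% of all genes did. The median log2 change of the 45 members, RAB38 included, was -0.088, beside -0.10 for all genes. With RAB38, whose levels are a description, the count was 12 of 45 (26.7%), and the alternatives that follow include it. Median-of-ratios scaling gave 4 rises and 7 falls, against 12.8% and 11.4% of all genes, with RAB12 and RAB34 no longer called and RAB7A called. The libraries of HC and LC did not overlap for 14 members, or 13 without RAB38, against 40.6% of all genes. HC was above in 4 (13.3% of all genes) and below in 10, or 9 without RAB38 (27.4%).

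MC minus LC also had 11 of 44 members besides RAB38 past the test, against 33.4% of all genes. RAB10, RAB11A, RAB21, RAB23, RAB32 and RAB40C rose, where 16.2% of all genes did. RAB7B, RAB11B, RAB27A, RAB27B and RAB3D fell, where 17.1% of all genes did. The median of the 45 members, RAB38 included, was 0.015. With RAB38 the count was 12 of 45 (26.7%), and the alternatives that follow include it. Quantile normalization gave 5 rises and 8 falls, against 18.6% and 18% of all genes. The count was 6 without LC2, without LC3, without MC1 or without MC3, and 7 without MC2. Those 5 fits called 2838 to 3330 of all genes, against 3894 in the main fit. The libraries did not overlap for 20 members, or 19 without RAB38, against 47.1% of all genes. MC was above in 11 (23.8% of all genes) and below in 9, or 8 without RAB38 (23.4%).

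In HC minus MC 9 of 45 members passed (20%), against 25% of all genes. RAB11B rose, where 8% of all genes did, and RAB3D, RAB10, RAB11A, RAB12, RAB18, RAB23, RAB24 and RAB34 fell, where 17% did. The members' median was -0.20, beside -0.10 for all genes. The libraries did not overlap for 17 members, against 46.4% of all genes, with HC above for RAB11B and RAB15 (14.7% of all genes) and below in 15 (31.6%). Median-of-ratios scaling gave 2 rises and 3 falls, against 13% and 11.3% of all genes. The count was 3 without HC2 or without HC3, 4 without MC1 or without MC3, 5 without MC2 and 14 without LC1. In that order these fits called 1801, 1619, 1676, 2320, 1703 and 4066 of all genes, against 2917 in the main fit. The smooth muscle markers stood apart between these diets as well, and with their mean as a covariate limma called 0 of the 45 members (10 at an unadjusted p under 0.05) and 974 of all genes. The log2 changes of 7 of the 9 called members kept at least 95% of their size with the covariate (RAB18 went from -0.49 to -0.75 and RAB3D from -0.42 to -0.62), and those of RAB23 (-0.87 to -0.47) and RAB34 (-0.88 to -0.41) became smaller.

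Over the 3 diets together 16 members passed the F test (35.6%, and 15 of 44 without RAB38), against 45.2% of all genes. Their mean was highest in LC for 7 members, or 6 without RAB38 (19.6% of all genes), while MC was highest for 7 (18.4%) and HC for RAB11B and RAB15 (7.19%). It was lowest in LC for RAB11A, RAB15 and RAB32 (13.1% of all genes), in MC for RAB7B and RAB11B (13.4%) and in HC for 11 members, or 10 without RAB38 (18.6%). Of 31 calls of single members other than RAB38 in the 3 contrasts, 9 held in every alternative at the 0.05 threshold in which the gene was tested. These were RAB3D, RAB7B, RAB15, RAB27A, RAB27B and RAB32 in HC minus LC, and RAB7B, RAB11A and RAB32 in MC minus LC. RAB15 and RAB27A were too low to be tested with a mean of at least 5 FPKM, and RAB27A had passed the level filter through LC and MC alone.

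**Figure D3:**
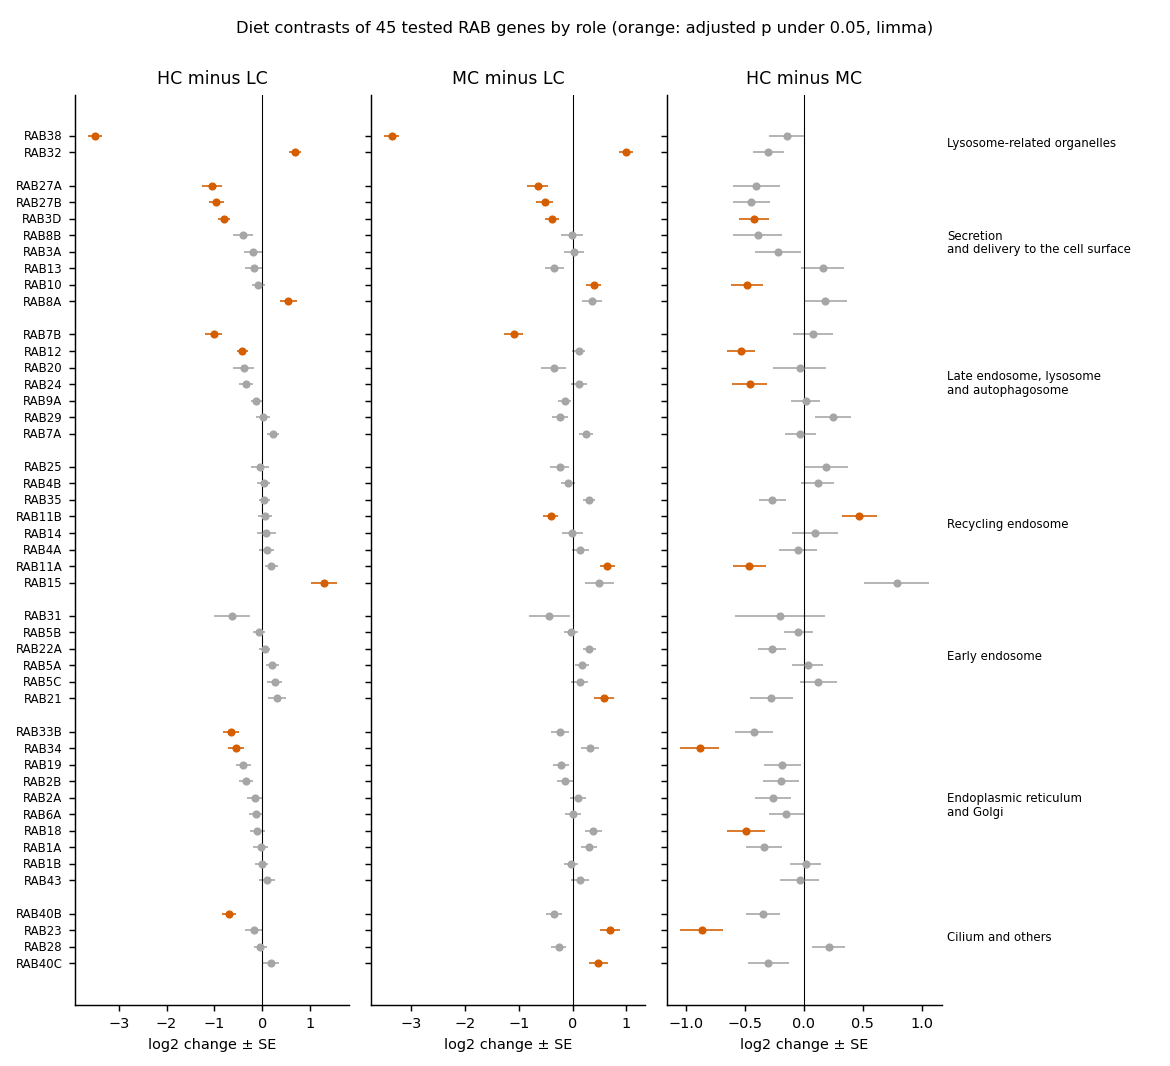
Log2 changes ± SE of the 45 tested RAB genes by role in the 3 contrasts, each panel with its own axis scale. Orange marks genes past limma's test, which for RAB38 is a description only. RAB38 and RAB32 point in opposite directions in both contrasts with LC, and RAB3D, RAB27A, RAB27B and RAB7B lie to the left in both.

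RAB27B, RAB3D and RAB27A, which serve regulated secretion, had their highest means in LC. Of the 8 tested members of secretion and surface delivery, 1 rose and 3 fell in HC minus LC (median log2 change -0.29), 1 rose and 3 fell in MC minus LC (median -0.17), and 2 fell in HC minus MC (median -0.39). Of all genes 7.79% and 17.4%, 16.2% and 17.1%, and 8% and 17% rose and fell in these contrasts, and the same shares stand beside the counts of the other roles. RAB27B, which docks secretory vesicles and exosome-forming bodies at the plasma membrane, stood at 9.38, 6.80 and 8.39 FPKM in LC1 to LC3, at 6.01, 5.21 and 4.996 FPKM in MC1 to MC3, and at 4.30, 2.78 and 4.18 FPKM in HC1 to HC3. LC, MC and HC followed each other without overlap. RAB27B fell in HC against LC (log2 change -0.96 ± 0.16, adjusted p = 0.00133) and in MC against LC (log2 change -0.51 ± 0.16, adjusted p = 0.0261), the second call being lost without LC1, LC3, MC2 or MC3 (adjusted p from 0.0649 to 0.0796).

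RAB3D, a GTPase of mature secretory granules, had the same order at a higher level. It stood at 35.1, 41.5 and 42.6 FPKM in LC1 to LC3, at 27.9, 28.4 and 34.9 FPKM in MC1 to MC3, and at 23.0, 22.2 and 21.7 FPKM in HC1 to HC3. The lowest LC library was just above the highest MC library, and HC lay below both. RAB3D fell in HC against LC (log2 change -0.80 ± 0.13, adjusted p = 0.00114), in MC against LC (log2 change -0.38 ± 0.13, adjusted p = 0.0406) and in HC against MC (log2 change -0.42 ± 0.13, adjusted p = 0.0331). The calls against MC were lost when any of several libraries was left out (adjusted p up to 0.145 for MC minus LC and up to 0.109 for HC minus MC). The HC minus MC call was also lost after median-of-ratios scaling (adjusted p = 0.0755). With the smooth muscle covariate the log2 change was -0.29 for MC minus LC (adjusted p = 0.139) and -0.62 for HC minus MC (adjusted p = 0.0651). RAB3D shares its locus with an uncharacterised gene, so its value is uncertain.

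RAB27A, which tethers melanosomes and lytic granules to the cell cortex, was low. It stood at 2.65 ± 0.214 (LC), 1.40 ± 0.672 (MC) and 0.766 ± 0.166 (HC) FPKM, and it fell in HC against LC (log2 change -1.05 ± 0.20, adjusted p = 0.00329) and in MC against LC (log2 change -0.65 ± 0.20, adjusted p = 0.0273). The call for MC was lost without LC2, LC3 or MC3 (adjusted p from 0.0591 to 0.0808). RAB27A passed the level filter through LC and MC alone, with 0.888, 0.577 and 0.835 FPKM in HC1 to HC3. It thus entered the test through the diets where it is high, and both calls held with no filter on level. The summed macrophage markers stood highest in LC, as did RAB27A, RAB27B, RAB3D and RAB7B. Between the other diets the summed markers stood higher in HC than in MC, as did the mean of RAB7B (5.53 against 5.30 FPKM). The means of RAB27A, RAB27B and RAB3D were lower in HC than in MC, as was CD14 among the markers. Of 9 tested macrophage and dendritic cell markers 5 rose and 1 fell in HC minus MC (8% and 17% of all genes). The T cell genes CD3D, CD3E and CD2 also stood highest in LC, and the part of these cells in the results was not tested.

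The RABs of constitutive delivery from the Golgi to the surface had other orders. RAB10, which carries basolateral cargo, stood at 62.9, 55.3 and 62.2 FPKM in LC1 to LC3, at 88.1, 71.1 and 78.4 FPKM in MC1 to MC3, and at 62.5, 50.8 and 56.6 FPKM in HC1 to HC3. All MC libraries were above all others. RAB10 rose in MC against LC (log2 change 0.39 ± 0.14, adjusted p = 0.0451) and fell in HC against MC (log2 change -0.48 ± 0.14, adjusted p = 0.0254). Both calls were lost without HC3, MC1 or MC3 (adjusted p up to 0.175 for the first and 0.110 for the second) and with the smooth muscle covariate. With that covariate the log2 changes did not become smaller, at 0.42 for the first and -0.54 for the second. The first was also lost without LC2, LC3 or MC2 and after quantile normalization (adjusted p = 0.115). The second was also lost without HC2 and after median-of-ratios scaling (adjusted p = 0.0692).

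RAB8A, a close relative of RAB10 that also serves the primary cilium, rose in HC against LC from 47.8 ± 9.80 to 70.0 ± 11.8 FPKM (log2 change 0.55 ± 0.18, adjusted p = 0.0451). The 2 diets overlapped, and the call was lost without any 1 library other than HC1 or LC3 (adjusted p from 0.0506 to 0.161). With the smooth muscle covariate the log2 change of RAB8A was 0.34 (adjusted p = 0.249). RAB8B, RAB13 of tight junctions and RAB3A of synaptic vesicles passed no contrast, with means from 0.989 to 55.9 FPKM. RAB3B and RAB26 reached at most 0.242 and 0.551 FPKM.

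Among the RABs of late endosomes, lysosomes and autophagosomes the common and the rare form of RAB7 differed. Of 7 tested members 2 fell in HC minus LC (median log2 change -0.33), 1 fell in MC minus LC (median -0.14) and 2 fell in HC minus MC (median -0.028), and the rest passed no test. RAB7A, which drives the fusion of late endosomes with lysosomes, stood at 97.3, 102 and 94.8 FPKM in LC1 to LC3, at 116, 109 and 127 FPKM in MC1 to MC3, and at 106, 117 and 122 FPKM in HC1 to HC3. LC was below both other diets in every library, but no contrast passed (adjusted p = 0.151 for MC minus LC and 0.216 for HC minus LC). After median-of-ratios scaling and with library weights RAB7A passed in HC minus LC.

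RAB7B, which acts between late endosomes and the Golgi and is known from monocytes, had the opposite order. It stood at 10.4, 11.8 and 14.8 FPKM in LC1 to LC3, at 7.14, 4.38 and 4.36 FPKM in MC1 to MC3, and at 5.45, 5.31 and 5.82 FPKM in HC1 to HC3. Every LC library was above every other. RAB7B fell in MC against LC (log2 change -1.10 ± 0.17, adjusted p = 0.000643) and in HC against LC (log2 change -1.02 ± 0.17, adjusted p = 0.00162). MC and HC overlapped (log2 change 0.08 ± 0.17, adjusted p = 0.765).

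RAB12, which sends transferrin receptor to lysosomes, was lowest in HC. It stood at 31.0, 26.2 and 29.0 FPKM in LC1 to LC3, at 31.4, 31.8 and 30.4 FPKM in MC1 to MC3, and at 22.3, 18.7 and 23.1 FPKM in HC1 to HC3, with LC and MC overlapping above it. It fell in HC against MC (log2 change -0.53 ± 0.12, adjusted p = 0.00912, but 0.123 with the smooth muscle covariate at a log2 change of -0.52) and in HC against LC (log2 change -0.41 ± 0.12, adjusted p = 0.0280, but 0.1 after median-of-ratios scaling, and 0.0503 to 0.104 without HC2, HC3, LC1 or LC3).

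RAB24, a GTPase of autophagosomes, fell in HC against MC from 90.8 ± 13.7 to 65.5 ± 6.29 FPKM (log2 change -0.46 ± 0.15, adjusted p = 0.0405). That call was lost after median-of-ratios scaling (adjusted p = 0.0882) and when any of several libraries was left out. RAB9A, which returns mannose 6-phosphate receptors to the Golgi, RAB20 of phagosomes and RAB29 of the Golgi and lysosomes passed no contrast. RAB9B was too low to be tested, at 0.370 to 0.467 (LC), 0.403 to 0.487 (MC) and 0.0634 to 0.248 (HC) FPKM, where the HC libraries lay below the others.

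On recycling endosomes RAB11A and RAB11B, the pair that returns internalised proteins to the surface, went in opposite directions in MC. Of the 8 tested recycling members 1 rose in HC minus LC (median log2 change 0.076), and in each of the other contrasts 1 rose and 1 fell (median 0.069 for MC minus LC and 0.11 for HC minus MC). RAB11A stood at 83.4, 78.8 and 85.3 FPKM in LC1 to LC3, at 146, 117 and 129 FPKM in MC1 to MC3, and at 101, 83.2 and 99.3 FPKM in HC1 to HC3. RAB11B stood at 64.8, 68.5 and 64.0 FPKM in LC1 to LC3, at 49.1, 47.4 and 51.4 FPKM in MC1 to MC3, and at 54.9, 78.0 and 75.8 FPKM in HC1 to HC3. MC was the highest diet for RAB11A and the lowest for RAB11B, in every library. The ratio of RAB11A to RAB11B was 1.15 to 1.33 in LC, 2.46 to 2.97 in MC and 1.07 to 1.83 in HC, and this ratio was not tested.

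RAB11A rose in MC against LC (log2 change 0.65 ± 0.14, adjusted p = 0.00408) and fell in HC against MC (log2 change -0.46 ± 0.14, adjusted p = 0.0319). RAB11B fell in MC against LC (log2 change -0.41 ± 0.15, adjusted p = 0.0497) and rose in HC against MC (log2 change 0.47 ± 0.15, adjusted p = 0.0354). The HC minus MC calls of both genes were lost without HC2 (adjusted p = 0.124 for RAB11A and 0.130 for RAB11B), HC3, MC1 or MC3, and that of RAB11B without MC2 too. Both were also lost with the smooth muscle covariate (adjusted p = 0.159 and 0.186), and that of RAB11A after median-of-ratios scaling (adjusted p = 0.0805). With the covariate these log2 changes did not become smaller, at -0.52 for RAB11A and 0.51 for RAB11B. The MC minus LC call of RAB11B was lost without any 1 of HC3 and the MC and LC libraries (adjusted p from 0.0508 to 0.138).

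RAB15, an endosomal GTPase best known from neurons, was low and variable. It stood at 0.475, 1.08 and 0.194 FPKM in LC1 to LC3, at 1.205, 1.45 and 0.902 FPKM in MC1 to MC3, and at 1.65, 4.70 and 2.52 FPKM in HC1 to HC3. HC was above both other diets in every library, and the rise in HC against LC passed (log2 change 1.29 ± 0.27, adjusted p = 0.00654), while that against MC did not (adjusted p = 0.0562). RAB4A and RAB4B of fast recycling, RAB14, RAB25 and RAB35 passed no contrast.

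Early endosomes carry RAB5, which fuses incoming vesicles, in 3 forms. RAB5A, RAB5B and RAB5C had means of 31.4 to 36.5, 41.2 to 43.5 and 63.1 to 76.1 FPKM over the diets, and none of them passed a contrast. RAB5A shares its locus with PP2D1 and RAB5B with SUOX, so these values are uncertain. RAB21, which takes up integrins, rose in MC against LC from 19.1 ± 2.43 to 29.4 ± 6.36 FPKM (log2 change 0.59 ± 0.18, adjusted p = 0.0275). That call was lost without LC2, LC3, MC1 or MC3 (adjusted p from 0.0594 to 0.119). RAB22A and RAB31 passed no contrast. The median log2 change of the 6 early endosome members was 0.13 for HC minus LC, 0.16 for MC minus LC and -0.12 for HC minus MC.

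Of 10 tested RABs of the endoplasmic reticulum and Golgi, 2 fell in HC minus LC, 2 fell in HC minus MC and 0 passed in MC minus LC by limma, where RAB18 alone had an unadjusted p under 0.05. Their median log2 changes were -0.15, -0.23 and 0.058 in that order. RAB1A stood at 112, 133 and 159 FPKM in LC1 to LC3, at 168, 164 and 163 FPKM in MC1 to MC3, and at 142, 117 and 134 FPKM in HC1 to HC3. MC was above the other diets in every library, but the change did not pass (adjusted p = 0.15 against LC and 0.129 for HC minus MC).

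RAB18, which lies on the endoplasmic reticulum and lipid droplets, stood at 66.1, 83.5 and 93.5 FPKM in LC1 to LC3, at 111, 105 and 101 FPKM in MC1 to MC3, and at 85.0, 64.9 and 75.8 FPKM in HC1 to HC3. MC was again highest in every library. RAB18 fell in HC against MC (log2 change -0.49 ± 0.16, adjusted p = 0.0416, but 0.0911 after median-of-ratios scaling and 0.0565 to 0.153 without HC2, HC3, LC2 or any MC library). RAB33B, which acts at the Golgi and in autophagy, fell in HC against LC from 2.85 ± 0.683 to 1.44 ± 0.259 FPKM (log2 change -0.65 ± 0.16, adjusted p = 0.0139, but 0.0673 after quantile normalization and 0.0523 without HC2), and it shares its locus with another gene. RAB1B, RAB2A, RAB2B, RAB6A, RAB19 and RAB43 passed no contrast, and RAB6B and RAB30 were too low to be tested.

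**Figure D4:**
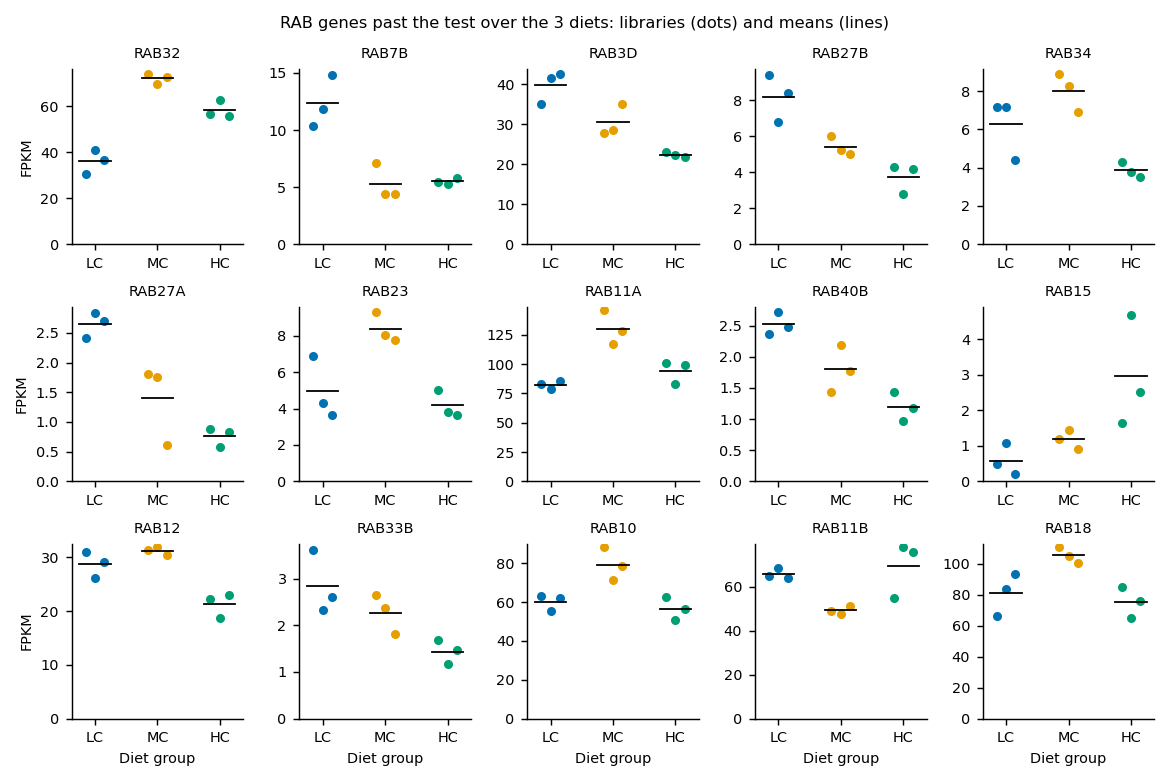
FPKM by library (dots) and mean (lines) of the 15 RAB genes besides RAB38 that passed the F test over the diets, in order of adjusted p. RAB32 is lowest in LC, RAB7B, RAB3D, RAB27A and RAB27B are highest there, and RAB11A and RAB11B are opposite in MC.

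For RAB34 and RAB23 the levels were read beside the smooth muscle markers, and the part of that signal in them was not tested. RAB34, a GTPase of the Golgi and of the forming cilium, stood at 7.17, 7.20 and 4.41 FPKM in LC1 to LC3, at 8.88, 8.28 and 6.90 FPKM in MC1 to MC3, and at 4.32, 3.79 and 3.53 FPKM in HC1 to HC3. LC3, the LC library with little smooth muscle signal, lay near HC, and LC1 and LC2 lay near MC. RAB34 fell in HC against MC (log2 change -0.88 ± 0.17, adjusted p = 0.00369, but 0.213 with the covariate) and in HC against LC (log2 change -0.55 ± 0.17, adjusted p = 0.0327, but 0.226 with the covariate, and 0.642 with LC3 as the only LC library). That last call was also lost without HC2, HC3, LC1, LC2 or MC2 (adjusted p from 0.0503 to 0.112).

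RAB23, which restrains Hedgehog signalling at the cilium, stood at 6.87, 4.31 and 3.65 FPKM in LC1 to LC3, at 9.32, 8.06 and 7.74 FPKM in MC1 to MC3, and at 5.05, 3.83 and 3.63 FPKM in HC1 to HC3. MC was above all other libraries, and LC1 came next. LC2 had more smooth muscle signal than MC3 (1077 against 932 FPKM) and less RAB23 (4.31 against 7.74 FPKM). RAB23 rose in MC against LC (log2 change 0.69 ± 0.19, adjusted p = 0.0137, 0.0467 with the covariate, but 0.0522 without LC3 and 0.0555 without MC1) and fell in HC against MC (log2 change -0.87 ± 0.19, adjusted p = 0.00668, but 0.260 with the covariate). RAB31, a GTPase of the Golgi and endosomes, stood at 9.43, 4.23 and 2.19 FPKM in LC1 to LC3, and it ranged from 2.08 to 4.04 FPKM in the other 6 libraries. Its highest value was in LC1, where fibroblast and endothelial markers also had their highest sums (503 and 37.7 FPKM, against 119 to 311 and 6.09 to 19.9 FPKM elsewhere).

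**Figure D5:**
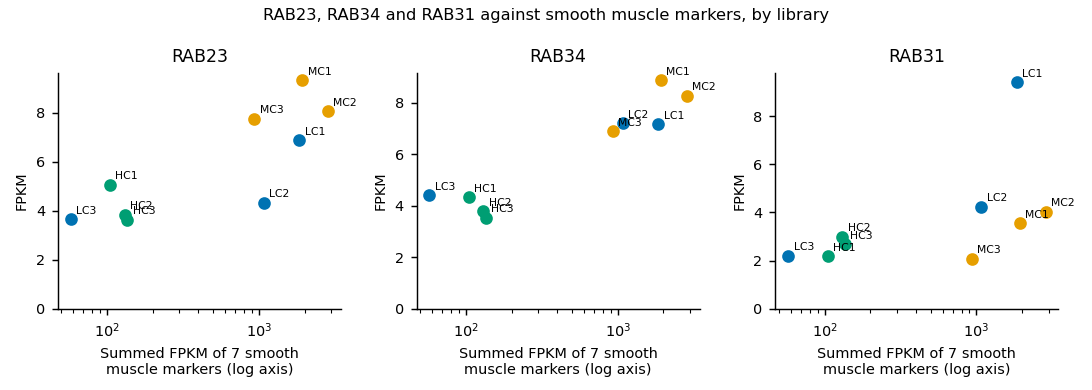
FPKM of RAB23, RAB34 and RAB31 against the summed FPKM of 7 smooth muscle markers (log axis), 1 dot per library, coloured by diet. For RAB34 the libraries LC1 and LC2 lie with MC, and LC3 lies with HC.

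Among the remaining members RAB40B, a substrate receptor of ubiquitin ligases, fell in HC against LC from 2.53 ± 0.177 to 1.197 ± 0.229 FPKM (log2 change -0.69 ± 0.15, adjusted p = 0.00570, but 0.067 after quantile normalization). Its relative RAB40C rose in MC against LC from 47.5 ± 11.5 to 65.4 ± 6.14 FPKM (log2 change 0.48 ± 0.17, adjusted p = 0.0494, lost in most alternatives). RAB28 passed no contrast. With RAB23 these make 4 members of the cilium and other roles, whose median log2 change was -0.11 for HC minus LC, 0.11 for MC minus LC and -0.32 for HC minus MC.

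The genes that run the RAB cycle were taken from lists of 153 genes, of which 133 were tested. In HC minus LC 4 of them rose and 25 fell (7.79% and 17.4% of all genes), with a median log2 change of -0.19. In MC minus LC 12 rose and 22 fell (16.2% and 17.1% of all genes), with a median of -0.056, and in HC minus MC 5 rose and 18 fell (8% and 17% of all genes), with a median of -0.12. As for the RABs themselves, most genes passed no contrast. The alternatives were read for the RABs alone, so how the calls of these genes depend on the processing was not tested.

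Of the 8 genes that carry and lipid-anchor RABs, GDI2, the main carrier in the cytosol, had means of 102 to 119 FPKM and passed no contrast, and it shares its locus with FAM208B. RABIF, a chaperone of RAB8 and RAB10, rose in MC against LC from 20.1 ± 1.22 to 29.3 ± 2.55 FPKM (log2 change 0.52, adjusted p = 0.00510) and fell in HC against MC (log2 change -0.36, adjusted p = 0.0387), the same directions as RAB10.

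Of 36 exchange factors 0 rose and 5 fell in HC minus LC (all genes 7.79% and 17.4%), 4 rose and 10 fell in MC minus LC (16.2% and 17.1%), and 1 rose and 2 fell in HC minus MC (8% and 17%). MON1A, which with CCZ1 activates RAB7, had means of 8.02 ± 2.22 (LC), 18.5 ± 3.39 (MC) and 6.60 ± 0.910 (HC) FPKM. It rose in MC against LC (log2 change 1.14, adjusted p = 0.000978) and fell in HC against MC (log2 change -1.36, adjusted p = 0.000713), while CCZ1 passed no contrast. MON1B fell in HC against MC (log2 change -0.58, adjusted p = 0.00983). RIN3, which acts on RAB5 and its relatives, fell in MC against LC (4.89 to 2.13 FPKM, adjusted p = 0.000985) and rose in HC against MC (adjusted p = 0.0174). RIN1 fell in MC against LC (13.6 to 7.72 FPKM, adjusted p = 0.00367) and in HC against LC (to 9.51 FPKM, adjusted p = 0.0448). DENND2C (11.7 to 6.61 FPKM, adjusted p = 0.00150) and SH3BP5, which acts on RAB11 (5.46 to 2.72 FPKM, adjusted p = 0.00275), fell in HC against LC. Both also fell in MC against LC (adjusted p = 0.00971 and 0.0297).

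RAB32 and RAB38 are switched on by the complex of HPS1 and HPS4. HPS1 fell in MC against LC from 8.64 ± 1.34 to 5.84 ± 0.286 FPKM (log2 change -0.49, adjusted p = 0.0152), and HPS4 fell in HC against LC from 4.26 ± 0.680 to 2.68 ± 0.175 FPKM (log2 change -0.51, adjusted p = 0.0131). ANKRD27, which binds both GTPases, had means of 8.79 to 10.1 FPKM and passed no contrast. Of the 20 tested genes of complexes that build lysosome-related organelles, 1 rose and 5 fell in HC minus LC (all genes 7.79% and 17.4%), 1 rose and 3 fell in MC minus LC (16.2% and 17.1%), and 0 rose and 2 fell in HC minus MC (8% and 17%). HPS6 fell in HC against LC (2.22 to 1.15 FPKM, adjusted p = 0.00457) and against MC (adjusted p = 0.00246), as did DTNBP1 (16.8 ± 4.40 (LC), 15.6 ± 1.19 (MC) and 10.5 ± 0.367 (HC) FPKM, adjusted p = 0.0162 and 0.0303). SNAPIN (34.7 to 20.2 FPKM, adjusted p = 0.00169) and VPS33B (6.51 to 4.92 FPKM, adjusted p = 0.0369) fell in MC against LC. SNAPIN also fell in HC against LC (to 24.1 FPKM, adjusted p = 0.0220), where VPS33B did not pass (adjusted p = 0.263).

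Of 33 GTPase-activating proteins 2 rose and 5 fell in HC minus LC (all genes 7.79% and 17.4%), 2 rose and 7 fell in MC minus LC (16.2% and 17.1%), and 2 rose and 3 fell in HC minus MC (8% and 17%). TBC1D30 rose in HC against LC (2.43 to 5.19 FPKM, adjusted p = 0.00172) and against MC (adjusted p = 0.00670). TBC1D2, which acts on RAB7, fell in HC against LC (10.5 to 6.03 FPKM, adjusted p = 0.00580) and against MC (adjusted p = 0.0172). RABGAP1L fell in HC (adjusted p = 0.00184) and in MC (adjusted p = 0.00305) against LC, from 3.29 FPKM to 1.61 and 1.81 FPKM. RABGAP1 fell (adjusted p = 0.0161) and TBC1D7 rose (adjusted p = 0.0250) in MC against LC, and TBC1D12 fell in HC against MC (adjusted p = 0.00959). RABGAP1 also fell in HC against LC (adjusted p = 0.0254). TBC1D30, RABGAP1L and RABGAP1 share their loci with other genes, so their values are uncertain.

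Of 38 effectors 1 rose and 10 fell in HC minus LC (all genes 7.79% and 17.4%), 4 rose and 3 fell in MC minus LC (16.2% and 17.1%), and 2 rose and 10 fell in HC minus MC (8% and 17%). MYO5A, the motor that RAB27A recruits to move organelles along actin, had means of 8.11 ± 1.24 (LC), 8.35 ± 0.762 (MC) and 3.39 ± 0.222 (HC) FPKM. It fell in HC against LC (log2 change -1.05 ± 0.13, adjusted p = 0.000190) and against MC (log2 change -1.09 ± 0.13, adjusted p = 0.000249). MLPH, the adaptor between RAB27A and MYO5A, was listed in 3 libraries only. SYTL2, another RAB27 effector, rose in MC against LC (5.33 to 9.31 FPKM, adjusted p = 0.00123) and fell in HC against MC (adjusted p = 0.00777), and it shares its locus with another gene. The tether USO1, which RAB1 recruits, fell in HC against MC (21.2 to 13.8 FPKM, adjusted p = 0.00391), and the golgin GOLGB1 fell in HC against LC (9.91 to 5.71 FPKM, adjusted p = 0.00388). USO1 also rose in MC against LC (adjusted p = 0.00583), and GOLGB1 also fell in HC against MC (adjusted p = 0.0155). MICAL1 fell in HC (adjusted p = 0.00434) and in MC (adjusted p = 0.00170) against LC, from 3.81 FPKM to 2.05 and 1.93 FPKM. RABEP2, which links RAB5 and RAB4, fell in MC against LC (9.16 to 4.60 FPKM, adjusted p = 0.00194) and rose in HC against MC (adjusted p = 0.0195).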

How the data were processed

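RNA of 9 rumen epithelium libraries had been sequenced, and the authors deposited 1 table of FPKM values per gene and library. Bowtie 1.2.0 and Cufflinks 2.2.1 are named, per the submitters' processing notes. Genome build, annotation and strand setting: not given in the sources used here. The unit follows from the named tool and the range of values. The tables hold no counts, so absolute depth is unknown. The libraries numbered 1, 1 in each diet, shared fewer steps among their low values with the other libraries, so how they were made may differ, which was not tested. Names turned into dates (18 to 21 lines in each LC and MC table) and empty lines (11468 to 12038 in each HC table) were left out, and the lines of TPT1 and of CD81 were summed. Chromosome names come from RefSeq (ARS1.2) by symbol, with 50 of 50 members matched. Positions and genes at a shared locus are those deposited with the FPKM values, whose build is not given.

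log2(FPKM + 1) was fitted with limma 3.58.1 in R 4.3.3 (trend and robust moderation, a mean per diet, all 9 libraries, 6 residual degrees of freedom) over 11668 genes listed in every library with at least 1 FPKM in at least 3. Tests were two-sided with Benjamini-Hochberg adjustment and a threshold of 0.05. Python 3.11.15 was used for summaries. The fit was tested on simulated data. The RAB names, the role groups, the lists of RAB cycle genes and the cell type markers (rumen epithelium, melanocyte, macrophage and dendritic cell, neutrophil, T and NK cell, plasma cell, smooth muscle, fibroblast, endothelium, nerve and glia) were chosen with earlier results of these data known. Values in every library were given for RAB38, RAB32, RAB25, RAB11A, the 4 members with the smallest adjusted p in each contrast and the 5 with the highest mean, and other members were given within their role. RAB11B, RAB15, RAB31 and RAB9B were singled out after their values were seen. Up to 3 genes per contrast were named from each list of RAB cycle genes, by smallest adjusted p among those past the test, and GDI2, CCZ1, ANKRD27 and MLPH were added after their values were seen. A gene that this rule names is not reported here. Alternatives covered scaling, pseudocount, level filter, moderation, library weights, threshold, each library left out and the replicate number as a block, with 3 added after seeing the data (libraries numbered 1 left out, LC3 as the only LC library, a covariate of smooth muscle markers).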

Additional observations from a re-analysis of the deposited data

How the results depend on the processing

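The number of members past the test was 12 (HC minus LC), 12 (MC minus LC), 9 (HC minus MC) and 16 (F test). All of these but HC minus MC include RAB38. With library quality weights, which ranged from 0.192 for LC1 to 7.59 for HC3, the counts were 23, 19, 27 and 33. Of all genes 5889, 5587 and 6590 were then called in the 3 contrasts, against 2939, 3894 and 2917 in the main fit. A mean of at least 5 FPKM left 7 calls among 35 tested members in HC minus LC, against 1674 of 7633 genes. No member tested there lost its call, and those no longer called were too low to be tested. A threshold of 0.01 left 4 calls in MC minus LC and 3 in HC minus MC, and median-of-ratios scaling left 5 in HC minus MC. Of all genes that threshold left 1075 rises and 1186 falls in MC minus LC and 397 rises and 849 falls in HC minus MC. The scaling left 2832 of all genes called in HC minus MC. With LC3 as the only LC library, assumed to vary like the other diets, there were 7 calls in HC minus LC and 6 in MC minus LC. The smooth muscle covariate left 0 in HC minus MC by limma, with 10 at an unadjusted p under 0.05, while 7 of the 9 log2 changes kept at least 95% of their size. Besides RAB38, 6 of 11 called members kept that size in HC minus LC and 7 of 11 in MC minus LC. Leaving out 1 library at a time gave 8 to 14, 6 to 12, 3 to 14 and 12 to 22 calls. The calls among all genes moved too, from 1769 to 2811, 2838 to 4043 and 1619 to 4066 in the 3 contrasts. The causes were not tested. With the replicate number as a block the counts were 16, 15, 13 and 22, and 3751, 4613 and 3871 of all genes were called in the 3 contrasts. The labels do not say that a number marks a shared animal or day. Correlations of deviations ranged from -0.0759 to 0.504 over 9 pairs with the same number and from -0.494 to 0.310 over 18 others, and 7 of 9 libraries correlated best with their own number, a hint from the data that not every pair bears out. The libraries numbered 1 shared fewer steps among low values with other libraries (0.59% to 1.62% of genes in the commonest step, against 3.72% to 13% between the rest). Without them the counts were 11, 11, 12 and 21, with RAB12 and RAB34 lost in HC minus LC and RAB10, RAB27B and RAB40C lost in MC minus LC. Among all genes 2842, 3682 and 3341 were then called in the 3 contrasts. Of 1095 values recomputed for single members 915 stayed on their side of the threshold, 157 lost a call, 23 gained one and 0 reversed.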

Other observations

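Of the RAB names listed in some libraries only, RAB17, an epithelial GTPase, was listed at 0.0993, 0.129 and 0.251 FPKM in LC1 to LC3 and at 0.178, 0.296 and 0.234 FPKM in HC1 to HC3, and it was listed in no MC library. RAB42 was listed at 0.408, 0.409 and 0.333 FPKM in LC1 to LC3, at 0.0438, 0.214 and 0.0375 FPKM in MC1 to MC3, and at 0.112 and 0.0887 FPKM in HC2 and HC3. These levels are low and were not tested. RAB33A, RAB37, RAB39A, RAB39B, RAB3C and RAB44 reached at most 0.210 FPKM in any library.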
